A study of Mus musculus with 8 samples.

Results

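The replication-dependent histone genes code for the linker histone H1 and the core histones H2a, H2b, H3 and H4, and lie in the histone clusters of the mouse genome. Of the 55471 entries of the deposited count table, 67 were protein-coding genes of these clusters, 6 of class H1, 18 of H2a, 18 of H2b, 12 of H3 and 13 of H4. They were chosen by the older cluster symbols, which begin with Hist and the number of the cluster. The table itself uses newer symbols for most of them, so only 8 members carry such a name there (Hist1h2an, Hist1h2ao, Hist1h2ap, Hist1h2bp, Hist1h2bq, Hist1h2br, Hist1h4m and Hist1h4n). The other 59 were found by matching Ensembl gene identifiers to the symbols of GENCODE release M21, and their older symbol stands in parentheses at first mention. Hist1 on chromosome 13 held 54 members, Hist2 on chromosome 3 held 10, Hist3 on chromosome 11 held 2 and Hist4 on chromosome 6 held 1.

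The 8 bulk RNA-seq libraries were made from cells sorted by flow cytometry from femurs of mouse pups at 3 to 5 days of age, either skeletal stem cells (SSC) or the more committed bone cartilage stromal progenitors (BCSP). The 4 groups were Tet1 knockout (KO) SSC, wild-type (WT) SSC, KO BCSP and WT BCSP, with 2 libraries each, called round 2 and round 1 in the titles. What a round was (a sort, a litter or a sequencing run) is not given in the labels, nor is it said whether libraries came from separate mice or pools, so p-values measure the spread between these libraries. All samples, WT included, carry the strain name B6;129S4-Tet1tm1.1Jae/J, a germline Tet1 allele, and sex is not given. Tet1 encodes an enzyme that oxidises 5-methylcytosine in DNA.

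Replication-dependent histone genes are transcribed mainly in S phase, when new DNA is packed into nucleosomes. Their mRNAs usually end just after a conserved hairpin, the stem-loop, instead of in a poly(A) tail. The stem-loop binding protein SLBP and the U7 snRNP direct cleavage after it, and SLBP also serves translation and decay of the mRNA. Differentiated cells are known to make longer, polyadenylated transcripts from some of these genes, using sites downstream of the stem-loop. Replication-independent histones, such as H3.3, H2A.Z and the linker histone H1.0, are made outside S phase from ordinary polyadenylated mRNAs.

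The stem-loop is shown first because it defines the canonical end of these mRNAs. A hairpin of 6 paired bases on each side of a loop of 4 bases, of the form GGNNCTTTNNAGNNCC and lying after the stop codon, was found in the annotated coding transcripts of 44 of the 67 members (65.7%). The search needs annotated bases after the stop codon, and some of the 23 members without a match have short models. Those of H4c12 and H2bc13, for example, have 312 and 381 bases of exon. Absence from a model therefore does not show that the gene lacks the hairpin. Among the other 22460 protein-coding genes the hairpin was found in 5 (0.0223%), of which H2ax and H2bfm are themselves histone genes. These are 6 forms of the letters, written 5′ to 3′ as DNA with the stem in capitals:
H1f2, H2ac6, H2bc11, H3c4 and 22 others of H1, H2a, H2b and H3: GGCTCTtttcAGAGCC
H4c4 and 6 other H4 genes: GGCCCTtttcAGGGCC
H1f6, H3c6, H2bc3, H3c3, H3c7 and H2bc12: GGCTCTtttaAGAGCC
H4c9 and H4c14: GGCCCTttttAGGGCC
H4c11 and H4c2: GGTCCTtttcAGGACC
H2ac20: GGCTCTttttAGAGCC
The commonest form accounted for 26 members, and none of them was an H4 gene. All 11 H4 genes with a hairpin differed from it in a pair of stem bases, T4C and A13G counted from the 5′ end, which keeps the stem paired. In the most abundant member, H1f2, the hairpin lies at chr13:23739512-23739527 on the plus strand of mm10, and in H4c9 at chr13:22040966-22040981 on the minus strand.

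Library totals ran from 104782544 to 168004119 counts, so 1 count per 1e6 counts (CPM) stood for 105 to 168 counts and 3 counts for 0.0179 to 0.0286 CPM, which covers counting error only. Levels below are CPM of the plain library total, and fold changes come from edgeR after TMM scaling. Markers of cartilage summed to 2.83e+05 to 3.35e+05 CPM in every library, and endothelial markers to at most 2.59 CPM. Osteoblast markers summed to 70.1 to 110 CPM in the 4 libraries of round 2, against 129 to 192 CPM in round 1, and red blood cell markers to 2.49 to 4.28 CPM in round 2, against 4.95 to 36.0 CPM in round 1. Neutrophil markers summed to 0.134 to 1.36 CPM in the 4 libraries of round 2, against 9.67 to 170 CPM in round 1, most in WT SSC, and lymphoid markers to 0.101 to 0.267 against 0.153 to 43.1 CPM. Macrophage markers went the other way in each group. They summed to 2.55 to 4.72 CPM in round 2, against 1.75 to 3.30 CPM in round 1. Tet1 itself stood at 12.1 and 7.67 CPM in KO SSC, against 20.1 and 15.6 CPM in WT SSC, and at 12.6 and 10.2 CPM in KO BCSP, against 9.37 and 23.0 CPM in WT BCSP. The library labelled WT BCSP of round 2 thus lay within the KO range. These counts cover the whole gene and do not separate the part that the allele removes, so they are a weak check of the labels, by which every library is named here.

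Histone cluster transcripts were a small part of these libraries, and a pair of genes made up most of them. All members together took 0.0451% to 0.131% of the counts of a library. H1f2 (Hist1h1c), a somatic linker histone, averaged 469 CPM and H2bc4 (Hist1h2bc), an H2b gene, 221 CPM, which were 55.9% and 26.4% of the member counts. Together they held 76.9% to 88.8% of the member counts of a library. A further 6 members averaged at least 10 CPM, 17 averaged 1 to 10 CPM, 35 had counts but averaged under 1 CPM, and 7 had 0 counts in every library. Those at 0 were Hist1h2ap, H2ac1 (Hist1h2aa), H2ac18 (Hist2h2aa1), H2ac19 (Hist2h2aa2), H2bc18 (Hist2h2bb), H3c13 (Hist2h3b) and H3c14 (Hist2h3c1). Many members are near copies of each other: 50 share an exact run of at least 150 bases with another member, so how reads of such copies were assigned or dropped in counting bears on their levels, and a count of 0 does not show that the gene is silent.

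In class H1, all 6 members passed the filter on low counts. H1f2 stood at 486 and 397 CPM in KO SSC, 718 and 471 in WT SSC, 318 and 272 in KO BCSP, and 721 and 368 in WT BCSP, each for rounds 2 and 1. In every group the round 2 library was the higher, and the lowest value was that of KO BCSP in round 1. H1f4 (Hist1h1e) and H1f3 (Hist1h1d), also somatic linker histones, averaged 20.01 and 19.8 CPM. H1f5 (Hist1h1b) averaged 3.20 CPM and H1f1 (Hist1h1a) 2.05 CPM. H1f6 (Hist1h1t), the linker histone of the testis, averaged 0.892 CPM. Per kb of annotated exon, H1f2 had 301 CPM, H1f4 10.4 and H1f3 2.67, so H1f3 falls well behind H1f4 once its exon length of 7425 bases is taken into account.

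Class H2b was led in the same way by 1 gene. H2bc4 stood at 275 and 200 CPM in KO SSC, 340 and 219 in WT SSC, 175 and 117 in KO BCSP, and 281 and 161 in WT BCSP, each for rounds 2 and 1. In every group its round 2 library was the higher. H2bc6 (Hist1h2be) followed at 15.4 CPM, H2bc8 (Hist1h2bg) at 5.57, H2bc21 (Hist2h2be) at 4.49 and H2bc11 (Hist1h2bj) at 4.10. H2bc6 and H1f4 overlap each other on the same strand, so part of their reads cannot be assigned to either. H2bc1 (Hist1h2ba), an H2b gene of the testis, averaged 0.00957 CPM. Of the 18 H2b genes, 14 were tested.

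Class H2a had no gene of such abundance. H2ac6 (Hist1h2ac) averaged 11.9 CPM, H2aw (Hist3h2a) 7.85 CPM and H2ac7 (Hist1h2ad) 2.73 CPM, and the other 15 members stayed under 1 CPM. H2ac1, the testis H2a gene next to H2bc1, was at 0. Each of the 18 H2a genes overlaps an annotated exon of a gene on the other strand, which only 3 of the other 49 members do. The 21 members with such an overlap had a median of 0.246 CPM per kb, against 1.52 CPM per kb in the 46 without. Of the 22 genes on the other strand, 17 had 0 counts in every library. Counting programs can set aside reads that fall on overlapping genes, and the sources do not give whether counting used strand, so low levels of H2a genes are uncertain. On the same strand, 7 members overlap an exon of another gene. H2aw does so with Trim17 and H2ac6 with Gm24991, and what this does to their levels was not tested.

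Class H3 was led by H3c4 (Hist1h3d), at 14.4 and 7.63 CPM in KO SSC, 22.3 and 12.7 in WT SSC, 9.79 and 2.38 in KO BCSP, and 5.98 and 6.92 in WT BCSP for rounds 2 and 1. On plain totals WT BCSP was the group whose round 2 library was not the higher. After TMM scaling the log2 level of H3c4 in WT BCSP, as a deviation from its mean over the libraries, was -0.30 in round 2. In round 1 it was -0.40, so this exception depends on the scaling. H3c15 (Hist2h3c2) averaged 1.87 CPM and H3c11 (Hist1h3i) 1.39 CPM, and the other H3 genes stayed under 1 CPM. In class H4, whose genes code for nearly the same protein, H4c9 (Hist1h4i) averaged 10.3 CPM, H4c4 (Hist1h4d) 3.61 and H4c14 (Hist2h4) 3.40. Per kb H4c9 ranked 3rd of all members, at 14.2 CPM per kb. By class, the mean summed levels were 515 CPM for H1, 256 for H2b, 25.6 for H4, 24.4 for H2a and 17.1 for H3. Without H1f2 and H2bc4 the H1 and H2b sums were within the same order of magnitude as those of the other classes, from 20.9 to 74.8 CPM and from 16.2 to 61.3 CPM over the libraries.

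**Figure D1:**
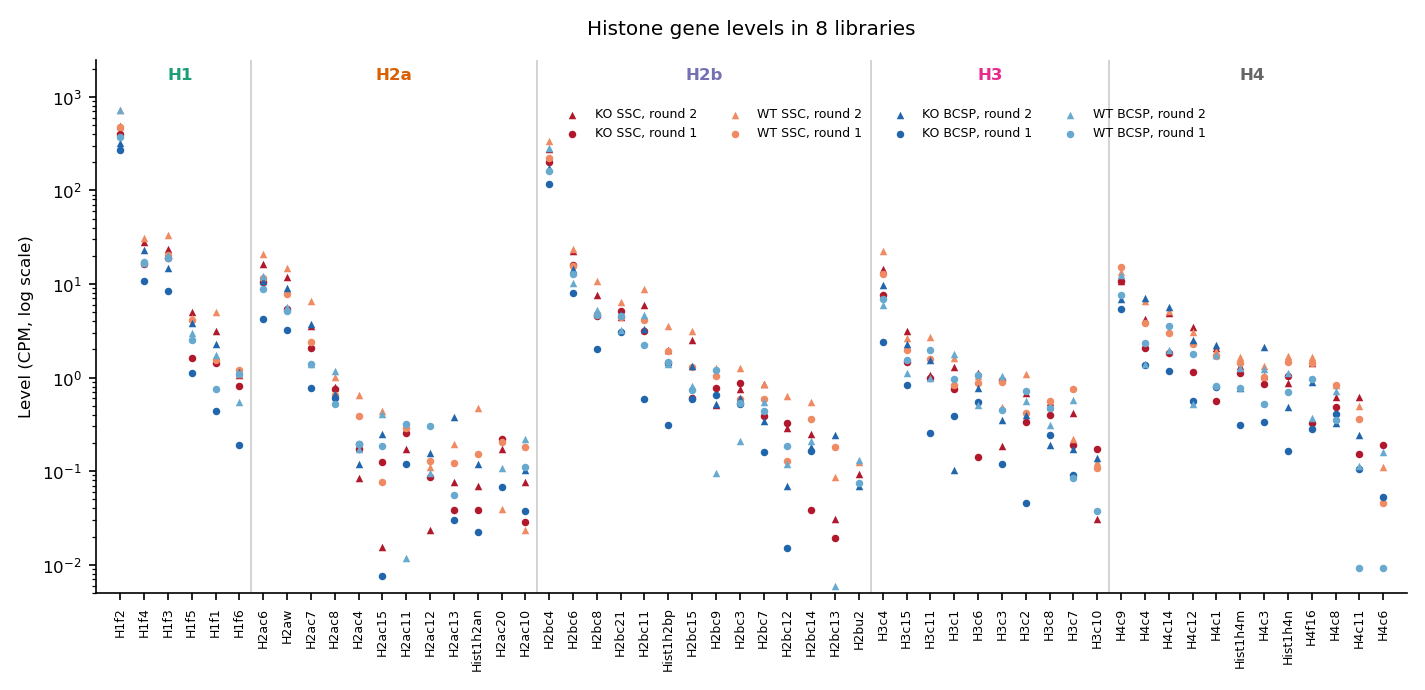
Level of each of the 54 tested histone genes (CPM, log scale) in each library, by class and sorted by mean level. Colours stand for the group, triangles for round 2 and circles for round 1, and values of 0 are not drawn. H1f2 and H2bc4 lie above 100 CPM in every library, and the circle of KO BCSP is at the bottom of most columns.

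Levels also differed by where the annotated transcript ends. In 22 members the coding model runs at least 100 bases past the stem-loop, and these held 69.7% of the member counts with a median of 1.96 CPM per kb. In another 22 the model ends within 100 bases of it, and these held 1.84% with a median of 0.689 CPM per kb. The 23 members with no stem-loop in their coding model held 28.4%, nearly all from H2bc4, with a median of 0.280 CPM per kb. This last set rests on the annotation, since a model can stop short of the hairpin. The order did not hold in each class. In H4 the median was 1.69 CPM per kb in members with a longer model and 1.21 in those that end near the stem-loop. It was 4.44 in the 2 H4 genes with no stem-loop in the model. In H2a the medians were 3.66, 0.109 and 0.279 CPM per kb in the same order of sets. In H3 the order held, at 0.908, 0.886 and 0.471 CPM per kb, with little between the first and the second. H1f2, H1f4, H1f3, H2bc6, H2ac6, H2aw, H3c4 and H4c9 are all in the first set, with models that continue for 840, 1153, 4884, 1861, 2010, 1643, 752 and 330 bases past the hairpin. H2bc11 is the most abundant member whose model stops shortly after it, 23 bases on. The limit of 100 bases was chosen after the models were seen. The sources used here do not give whether libraries were selected for poly(A), and the part of such a step in these levels was not tested.

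**Figure D2:**
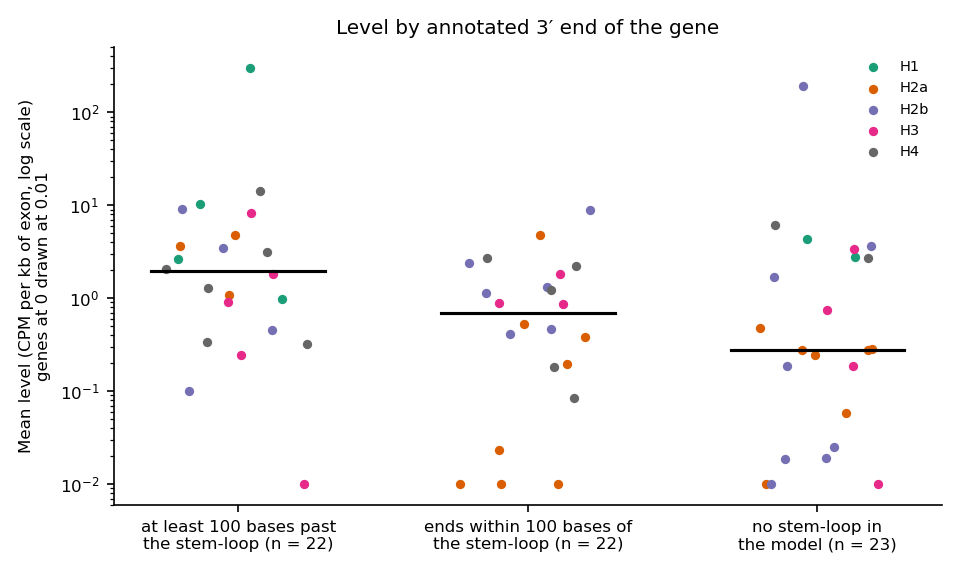
Mean level per kb of annotated exon (log scale) for the 67 histone genes, split by where the annotated coding transcript ends relative to the stem-loop. Points are genes coloured by class, lines are medians (1.96, 0.689 and 0.280 CPM per kb), and genes at 0 are drawn at 0.01. A model with no stem-loop does not show that the gene lacks it.

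H2a and H2b genes stand in pairs that start back to back, and 12 such pairs were found, with 175 to 305 bases between the starts. The H2b gene had the higher level per kb in 9 of the 12. Among the 9 are the pairs of Hist1h2br with Hist1h2ap and of H2bc1 with H2ac1. There the H2a gene was at 0 and the H2b gene at only 0.0192 and 0.0249 CPM per kb. For H2bc4 and H2ac6 the ratio was 39.9, for H2bc11 and H2ac11 (Hist1h2ag) 23.3, and for H2bc21 and H2ac20 (Hist2h2ac) 8.79. In the H2bc7 (Hist1h2bf) and H2ac7 pair the H2b gene was lower, at 0.236 times the H2a gene. The H2b gene was also lower for H2bc13 (Hist1h2bl) and H2ac13 (Hist1h2ai), at 0.650 times, and for Hist1h2bq and Hist1h2ao, at 0.798 times. Every H2a gene of the 12 pairs also has the overlap on the other strand named above.

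The start regions are shown for the most abundant pair, for H1f2, and for H2bc11, which differed between rounds. The sequences are RefSeq windows of GRCm38.p6, from 250 bases before to 50 bases after the annotated start, in lower case, and capitals mark 3 motifs, each searched on both strands so that a match on the other strand shows its reverse complement. The first was CCAAT, the box bound by NF-Y. The second was the TATA box, TATAAA. The third was the octamer bound by OCT factors, ATTTGCAT. The H2ac6 window reaches across the gap to the first bases of H2bc4.
H2ac6, chr13:23683910-23684209, minus strand: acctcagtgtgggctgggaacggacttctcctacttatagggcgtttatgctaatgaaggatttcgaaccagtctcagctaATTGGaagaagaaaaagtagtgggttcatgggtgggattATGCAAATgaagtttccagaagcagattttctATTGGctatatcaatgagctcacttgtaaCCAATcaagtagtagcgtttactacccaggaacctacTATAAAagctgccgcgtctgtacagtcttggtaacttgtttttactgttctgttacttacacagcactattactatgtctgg
H1f2, chr13:23738557-23738856, plus strand: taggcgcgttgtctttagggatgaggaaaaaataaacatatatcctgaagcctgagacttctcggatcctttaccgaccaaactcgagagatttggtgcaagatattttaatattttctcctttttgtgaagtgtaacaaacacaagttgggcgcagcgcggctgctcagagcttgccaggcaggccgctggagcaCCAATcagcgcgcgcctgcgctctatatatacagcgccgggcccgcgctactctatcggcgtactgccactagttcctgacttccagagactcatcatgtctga
H2bc11, chr13:22042948-22043247, plus strand: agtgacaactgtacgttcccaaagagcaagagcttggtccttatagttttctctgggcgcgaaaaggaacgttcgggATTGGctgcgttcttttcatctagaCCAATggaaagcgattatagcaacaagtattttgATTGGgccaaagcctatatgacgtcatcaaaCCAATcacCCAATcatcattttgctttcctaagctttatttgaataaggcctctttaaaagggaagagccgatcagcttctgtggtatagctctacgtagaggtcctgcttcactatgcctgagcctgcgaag
The H2ac6 window holds all 3 motifs, the H1f2 window only CCAAT, and the H2bc11 window 5 copies of CCAAT and no exact TATAAA or octamer. Windows were found for 54 members, 55 in all. CCAAT was present in 87.3% of them, against 37.4% of all 32851 promoter windows, and TATAAA in 56.4% against 13.6%. All windows of classes H1, H2a, H2b and H3 held CCAAT, against 3 of 10 for H4. ATTTGCAT was found in 25.5% of the member windows, against 1.74% of all, and these were 7 of 15 H2a and 7 of 14 H2b windows. Paired H2a and H2b genes start only 175 to 305 bases apart, so their windows can share bases. A single match there can count once in each class, so the H2a and H2b shares are not independent. These matches are a description of letters and not of binding. The first and the third motif can share end bases where they meet.

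Genotype was the comparison the study was designed for, asking what loss of Tet1 changes in each cell type. No histone gene passed the test in it. In SSC, 52 of the 54 tested members had a lower estimate in KO, with a median log2 fold change of -0.43, while the median over all 22153 tested genes was 0.01. None was called by edgeR's quasi-likelihood test at a Benjamini-Hochberg adjusted p of 0.05, nor by DESeq2, with 0.00451% of all tested genes called by edgeR. None had an unadjusted edgeR p below 0.05, which 266 of all 22153 tested genes had. The KO libraries lay entirely below the WT libraries for 15 of the 54 and entirely above for 0, against 10.7% of all tested genes entirely below and 17.1% entirely above. By class the median was -0.36 for H1, -0.84 for H2a, -0.41 for H2b, -0.48 for H3 and -0.41 for H4.

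The KO estimates in SSC with the lowest p were those of scarce genes. H2ac4 (Hist1h2ab) stood at 0.0852 and 0.172 CPM in KO SSC, against 0.647 and 0.389 CPM in WT SSC. Its groups did not overlap, and its log2 fold change of -2.05 ± 1.03 (SE) had an unadjusted p of 0.0683 and an adjusted p of 1 in edgeR. H3c11 stood at 1.05 and 0.993 CPM in KO SSC, against 2.73 and 1.57 CPM in WT SSC, a difference of -1.11 ± 0.67 with an edgeR adjusted p of 1. H1f2 averaged 442 ± 62.7 CPM in KO SSC and 595 ± 175 CPM in WT SSC (SD, n = 2 each), with a log2 fold change of -0.47 ± 0.37 (SE). Its groups overlapped, since the KO library of round 2 lay above the WT library of round 1. H2ac20 and H4c6 (Hist1h4f) had the only estimates above 0, and averaged 0.101 and 0.0712 CPM over the 8 libraries.

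In BCSP, 38 of the 54 members had a lower estimate in KO and 16 a higher, with a median of -0.45. None was called by edgeR at an adjusted p of 0.05 nor by DESeq2, and 0.00451% of all tested genes were called by edgeR. An unadjusted edgeR p below 0.05 was found for 6 members and for 1371 of all 22153 tested genes. The KO libraries lay entirely below the WT libraries for 12 of the 54 and entirely above for 1, against 17.7% of all tested genes entirely below and 15.8% entirely above. H1f2 stood at 318 and 272 CPM in KO BCSP, against 721 and 368 CPM in WT BCSP. The groups did not overlap, but the WT BCSP libraries differed more from each other than the lower of them differed from either KO library. The log2 fold change of -1.01 ± 0.37 (SE) had an edgeR adjusted p of 0.686. H1f3 stood at 14.8 and 8.33 CPM in KO BCSP, against 20.4 and 19.0 CPM in WT BCSP, with -0.87 ± 0.31 and the same adjusted p. H3c1 (Hist1h3a) stood at 0.103 and 0.392 CPM in KO BCSP, against 1.77 and 0.975 CPM in WT BCSP, with -2.54 ± 0.76. H4c4 pointed the other way only through its round 2 library, at 7.03 and 1.36 CPM in KO BCSP, against 1.39 and 2.34 CPM in WT BCSP. Hist1h2an and H2bc13 had the highest estimates but few counts. Hist1h2an was at 0.121 and 0.0226 CPM in KO BCSP and at 0 in both WT BCSP libraries, 17 counts against 0, so it was at least 6.28-fold higher in KO BCSP when WT BCSP is set at 3 counts over the group. With Hist1h2an at that bound the median of the members was again -0.45. H2bc13 was at 0.241 and 0 CPM in KO BCSP and at 0.00595 and 0 CPM in WT BCSP.

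The BCSP difference was not the same in each round. Taken within round 1, on log2(CPM + 0.1), 44 members were lower and 9 higher in KO BCSP, with a median of -0.76. Within round 2, 26 were lower and 28 higher, with a median of 0.20. These values are on plain library totals. After TMM scaling the members' median deviation from their mean over the libraries was 0.09 in KO BCSP and 0.23 in WT BCSP in round 2. In round 1 it was -1.07 in KO BCSP and -0.27 in WT BCSP. The order of KO and WT in round 2 thus depends on the scaling. Without the KO BCSP library of round 1 the median of the fitted fold changes was -0.11, and without that of round 2 it was -1.07. In SSC the rounds gave -0.41 (43 lower, 11 higher) in round 2 and -0.39 (43 lower, 10 higher) in round 1. The library of KO BCSP in round 1 was the lowest of the 8 for 34 of the 54 members, and that of WT SSC in round 2 the highest for 27.

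The KO difference in SSC minus that in BCSP had a median of -0.02 over the members, with 27 above 0 and 27 below. None was called by edgeR or DESeq2, and 0% of all tested genes were called by edgeR. An unadjusted edgeR p below 0.05 was found for 2 members and for 282 of all 22153 tested genes. Over both cell types, 45 members had a lower estimate in KO and 9 a higher, with a median of -0.49. None was called, by edgeR or by DESeq2, and 0.0135% of all tested genes were called by edgeR. An unadjusted edgeR p below 0.05 was found for 5 members and for 1753 of all 22153 tested genes. H1f2 averaged 368 CPM in KO and 570 CPM in WT (-0.74 ± 0.26, SE), H4c9 had -0.62 ± 0.22 and H1f3 -0.61 ± 0.21, each with an edgeR adjusted p of 0.613. With no filter on low counts H1f2 was called, with an edgeR adjusted p of 0.0226. Among the estimates above 0, 0.50 ± 0.84 for H4c11 (Hist1h4j) and 0.75 ± 1.67 for H3c10 (Hist1h3h) were smaller than their standard errors. The S phase list had 28 of 30 genes lower in KO over both cell types with a median of -0.34, and the G2 and M phase list 24 of 25 with -0.31, none of them called. In bulk libraries, fewer cells in cycle and less RNA per cell cannot be told apart.

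Between cell types, most histone genes had a higher estimate in SSC, and none passed the test. In SSC 49 of the 54 had a higher estimate than in BCSP and 5 a lower, with a median of 0.66, against 0.01 over all tested genes. None was called by edgeR at an adjusted p of 0.05 or by DESeq2, and 0.00451% of all tested genes were called by edgeR. An unadjusted edgeR p below 0.05 was found for 10 members and for 822 of all 22153 tested genes. H2bc6 had the lowest p, with 22.6 and 15.9 CPM in KO SSC and 23.7 and 15.6 in WT SSC, against 14.5 and 8.01 CPM in KO BCSP and 10.1 and 12.7 in WT BCSP. Its SSC libraries thus all lay above its BCSP libraries, by 0.72 ± 0.20 (SE) with an edgeR adjusted p of 0.884. H3c4 differed by 1.10 ± 0.38 and H1f3 by 0.59 ± 0.21, both with an adjusted p of 1 in edgeR after rounding. With no filter on low counts H3c4 was called, with an edgeR adjusted p of 0.000166. H1f2 differed by 0.25 ± 0.26, which is within its error.

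Within rounds and genotypes the median of SSC against BCSP stayed above 0. It was 0.42 in KO of round 2, 0.77 in KO of round 1, 0.91 in WT of round 2 and 0.42 in WT of round 1. Genes of the S phase list did not share this direction: 3 of 30 were higher in SSC and 27 lower, with a median of -0.17 and none called. The replication-independent histones had a median of 0.03 (8 of 14 higher), and the G2 and M phase list 0.08 (15 of 25 higher), with none called. The lowest estimates among the members, for H2ac15 (Hist1h2ak), H2ac10 (Hist1h2af) and H2ac12 (Hist1h2ah), were between -0.63 and -0.62 with standard errors above 1.

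**Figure D3:**
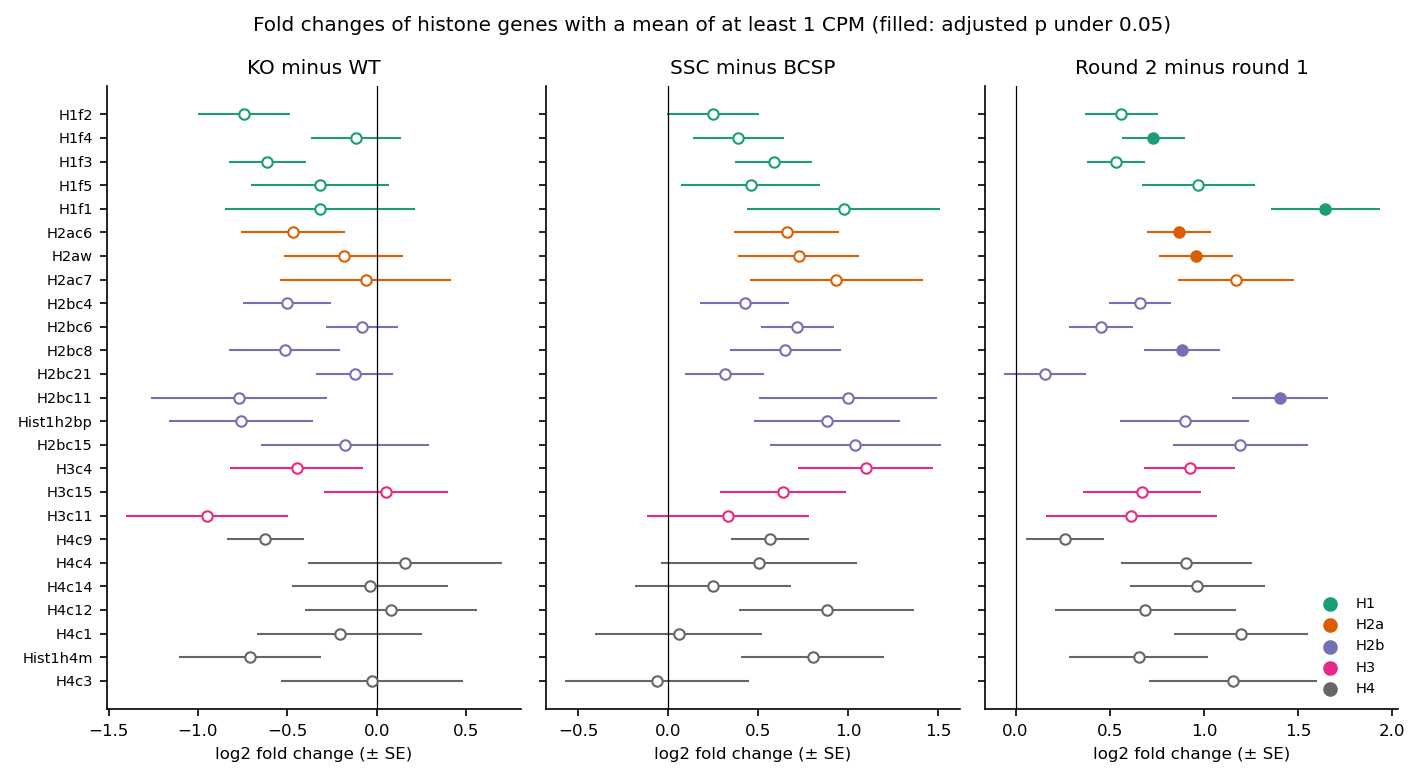
Log2 fold changes with standard errors (edgeR) for the 25 histone genes that averaged at least 1 CPM, for KO minus WT and SSC minus BCSP over all 8 libraries and round 2 minus round 1 within groups. Filled points passed an adjusted p of 0.05, which 6 genes did between rounds and none did for genotype or cell type, and all 25 estimates between rounds lie above 0.

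Rounds were the comparison in which histone genes passed the test. With the group in the model, 44 of the 54 members had a higher estimate in round 2 and 10 a lower, with a median of 0.68, against 0.00 over all tested genes. By edgeR 6 rose and 0 fell, which is 11.1% of the members tested, where 1.76% of all tested genes were called (1.1% higher and 0.664% lower). Those with a mean of at least 1 CPM were all above 0, 25 of 25, with a median of 0.88. The 6 were 2 linker histones, H1f1 and H1f4, the H2a genes H2ac6 and H2aw, and the H2b genes H2bc11 and H2bc8. No H3 or H4 gene passed, although 7 of 10 and 11 of 12 had estimates above 0, with medians of 0.61 and 0.70.

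H1f1 stood in round 2 at 3.11 CPM in KO SSC, 5.07 in WT SSC, 2.30 in KO BCSP and 1.74 in WT BCSP, against 1.43, 1.53, 0.437 and 0.761 CPM in round 1. Every round 2 library lay above every round 1 library, and H1f1 rose by 1.64 ± 0.29 on the log2 scale (SE, edgeR adjusted p = 0.0103). H2bc11 stood in round 2 at 5.99, 8.81, 3.27 and 4.62 CPM in the same order of groups, against 3.15, 4.17, 0.595 and 2.21 CPM in round 1. It was higher in round 2 in each group, by 1.40 ± 0.26 (edgeR adjusted p = 0.0122), although the KO BCSP library of round 2 lay below the WT SSC library of round 1.

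H2ac6 stood in round 2 at 16.3 CPM in KO SSC, 20.98 in WT SSC, 10.8 in KO BCSP and 12.1 in WT BCSP, against 10.4, 11.7, 4.23 and 8.74 CPM in round 1, a rise of 0.87 ± 0.17 (edgeR adjusted p = 0.0183). H2aw averaged 10.3 ± 3.94 CPM in round 2 and 5.40 ± 1.93 CPM in round 1 (SD, n = 4 libraries each), a rise of 0.96 ± 0.20 (SE, edgeR adjusted p = 0.0231). Its difference was small in WT BCSP, at 5.62 CPM in round 2 against 5.11 CPM in round 1. H1f4 averaged 24.8 ± 6.46 CPM in round 2 and 15.2 ± 2.98 CPM in round 1 (SD), and rose by 0.73 ± 0.17 (SE, edgeR adjusted p = 0.0406). In WT BCSP its CPM was 16.6 in round 2 against 17.0 in round 1, while after TMM scaling its log2 level, as a deviation from its mean over the libraries, was 0.03 in round 2 against -0.24 in round 1. H2bc8 averaged 7.13 ± 2.69 CPM in round 2 and 4.01 ± 1.34 CPM in round 1, and rose by 0.88 ± 0.20 (edgeR adjusted p = 0.0412). H1f1 and H2bc11 kept their call whichever library was left out, while H1f4 and H2bc8 lost it in 6 of 8 such fits, H2ac6 in 4 and H2aw in 2.

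The most abundant members had estimates in the same direction without passing. H2bc4 averaged 268 ± 68.6 CPM in round 2 and 174 ± 45.2 CPM in round 1 (SD, n = 4), with 0.66 ± 0.16 (SE, edgeR adjusted p = 0.0616). H1f2 averaged 561 ± 196 CPM in round 2 and 377 ± 82.5 CPM in round 1, with 0.56 ± 0.19 and an edgeR adjusted p of 0.23. H3c4 had 0.92 ± 0.24 (edgeR adjusted p = 0.0784), H4c9 0.26 ± 0.21 and H2bc21 stayed within its error. Among the estimates below 0 were those for H2ac11, H2bc9 (Hist1h2bh) and H2ac20, which are genes under 1 CPM, and the edgeR adjusted p of each was at least 0.60.

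By group, 41 of the 54 members were higher in round 2 in KO SSC, 45 in WT SSC, 46 in KO BCSP and 30 in WT BCSP. In all 4 groups at once, 19 were higher and 0 lower in round 2. These counts by group are on plain library totals, and the matching shares of all tested genes were not computed. For 4 members every round 2 library lay above every round 1 library, and for 0 every one lay below. Of all tested genes, 2.91% lay entirely above and 4.11% entirely below. The summed level of all members was 958, 1311, 641 and 1128 CPM in round 2 (KO SSC, WT SSC, KO BCSP and WT BCSP), against 722, 847, 451 and 649 CPM in round 1. Without H1f2 and H2bc4 the sums were 197, 252, 148 and 126 CPM in round 2, against 125, 157, 62.2 and 120 CPM in round 1. Each class sum was higher in round 2 in KO SSC, WT SSC and KO BCSP, and so were all in WT BCSP but H3, which stood at 12.8 CPM in round 2 against 14.2 CPM in round 1. On TMM-scaled totals the H3 sum in WT BCSP was 15.05 CPM in round 2 against 13.4 CPM in round 1, so this exception depends on the scaling.

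**Figure D4:**
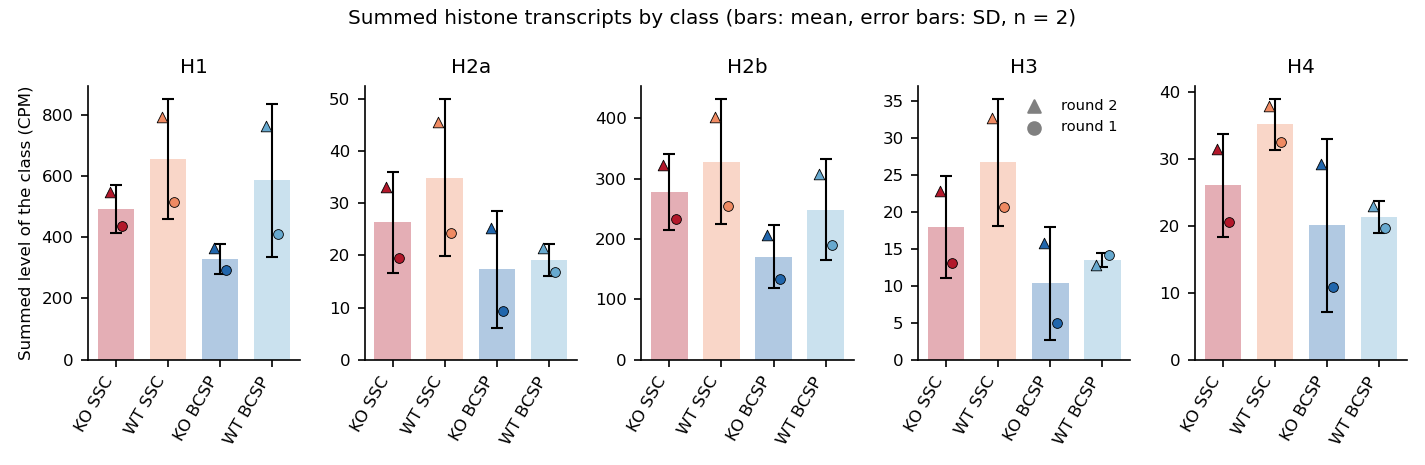
Summed level of each histone class (CPM) in each group, with bars for the mean of 2 libraries, error bars for the SD, triangles for round 2 and circles for round 1. The triangle is above the circle in every group and class except H3 in WT BCSP (12.8 against 14.2 CPM), which turns round on TMM-scaled totals (15.05 against 13.4 CPM).

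Genes of the S phase list and of the G2 and M phase list mostly had lower estimates in round 2. Of the S phase list (DNA polymerase, MCM and nucleotide synthesis genes), 25 of 30 had a lower estimate in round 2, with a median of -0.29, and Rrm2, a subunit of ribonucleotide reductase, fell by 0.83 on the log2 scale (edgeR adjusted p = 0.0211). Its summed level was 427, 515, 481 and 609 CPM in round 2 (KO SSC, WT SSC, KO BCSP and WT BCSP), against 595, 636, 530 and 669 CPM in round 1; on TMM-scaled totals WT BCSP turned round, with 714 CPM in round 2 against 630 CPM in round 1. All 25 genes of the G2 and M phase list had a lower estimate, with a median of -0.71. In that list 5 fell, among them the topoisomerase gene Top2a, by 0.75, and the spindle checkpoint kinase gene Bub1, by 0.98 (edgeR adjusted p = 0.0289 and 0.0154). The others were Cdk1, the kinase that drives mitosis, Ncapg, a condensin subunit, and Nusap1, a spindle protein.

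The replication-independent histones had a median of 0.09 with 8 of 14 above 0, the histone chaperones -0.18 with 0 of 17 above 0, and the histone mRNA processing list, which holds Slbp and U7 snRNP components, -0.16 with 2 of 16 above 0; none of these was called. Of 12 entries for RNAs that end without a poly(A) tail, 3 were tested and all had a higher estimate in round 2. Rn7sk, the 7SK RNA that holds the elongation factor P-TEFb, stood at 1.94, 2.70, 1.999 and 4.02 CPM in round 2, against 0.973, 0.671, 1.15 and 1.04 CPM in round 1 in the same order of groups. It rose by 1.48 ± 0.33 (SE, edgeR adjusted p = 0.0378). Neutrophil, lymphoid, red blood cell and osteoblast markers were higher in round 1, and macrophage markers were higher in round 2. Whether these, the share of RNA without a poly(A) tail, or cell cycle take part in the histone difference was not tested. Between rounds, members whose models run at least 100 bases past the stem-loop had a median of 0.73 (20 of 21 above 0), those ending within 100 bases 0.56 (11 of 17), and those with no stem-loop in the model 0.67 (13 of 16).

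**Figure D5:**
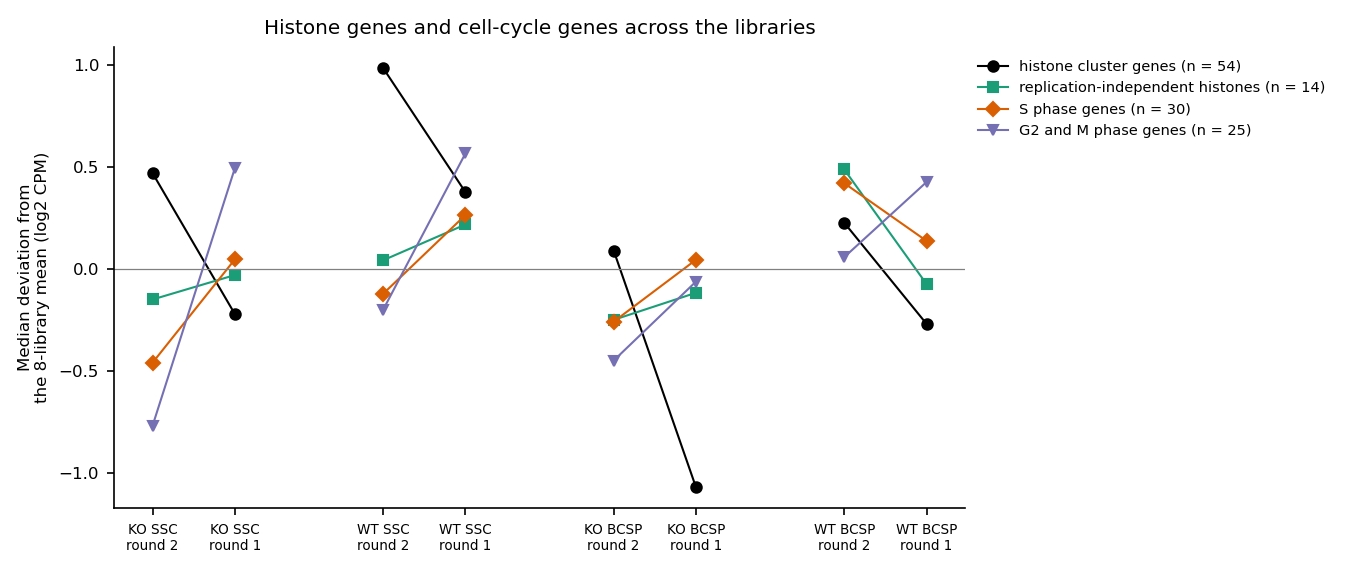
Median deviation of log2 CPM from the mean over the 8 libraries for histone cluster genes and 3 comparison lists, with the rounds of each group joined by lines. In each group the histone genes are higher in round 2 than in round 1 and the G2 and M phase genes lower, and the lowest histone value is that of KO BCSP in round 1 (-1.07) and the highest that of WT SSC in round 2 (0.98).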

How the data were processed

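RNA was sequenced as paired reads of 150 bases, per the labels. The submitters' processing notes name STAR, featureCounts, DESeq2 and the build mm10, whereas the name of the deposited table speaks of htseq. Selection for poly(A), the strand used in counting and the annotation release are not given in the sources used here. The authors deposited raw counts per gene for 8 libraries. Columns labelled SCC were taken as SSC, and BCP as BCSP. The histone genes, gene lists and threshold were chosen with earlier results of these data known.

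Positions, exon lengths and transcripts came from GENCODE M21 and promoters from RefSeq GRCm38.p6. filterByExpr (minimum count 10, minimum total 15) kept 22153 genes, 54 of them members, and TMM factors were 0.854 to 1.06. edgeR 4.0.16 in R 4.3.3 fitted quasi-likelihood models to all 8 libraries, with 1 mean per group for KO effects and their difference, cell type and genotype for the pooled effects, and group plus round for rounds. Adjusted p-values (Benjamini-Hochberg) cover all genes tested, and 0.05 was the threshold. The SE is the log2 fold change divided by the root of the F statistic. The pooled models treat SSC and BCSP libraries as independent, and p-values could be too small if they share mice. Log CPM used a prior count of 2. The model was run on simulated data in which only genes above 1 CPM were changed. That check does not cover the 29 tested members under 1 CPM. Alternatives were RLE factors, DESeq2 1.42.0, no filter, the round as a block, leaving out each library and, for class sums, other totals. Genes named were those past the threshold, the 3 lowest p in each direction of each comparison, and the 3 highest levels of each class; others were chosen after their values were seen.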

Additional observations from a re-analysis of the deposited data

How the results depend on the processing

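Directions of the member medians held under every alternative except the KO difference in SSC minus that in BCSP, which changed sign. Between rounds, 6 members were called; DESeq2 called 12, no filter 13, and leaving out both BCSP libraries of round 2 (chosen after seeing the data) 15, while leaving out 1 library at a time gave 3 to 23. The 3 came without WT SSC of round 2 or without KO BCSP of round 1, and the 23 without either WT BCSP library; without WT SSC of round 1 there were 4. All genes called between rounds numbered 390, against 937 with DESeq2, 861 with no filter, 1856 without both BCSP libraries of round 2, and 275 to 3909 without 1 library. With no filter 1 member was called for genotype over both cell types (H1f2, -0.74, adjusted p 0.0226) and 1 between cell types (H3c4, 1.10, adjusted p 0.000166), where edgeR with the filter called 0; the cause was not tested. All genes called for genotype over both cell types were 3, against 103 with DESeq2, 234 with no filter, 28 with the block and 11 without both BCSP libraries of round 2; for KO in SSC 1, against 9, 4, 2 and 1; for KO in BCSP 1, against 20, 38, 3 and 1; for their difference 0, against 2 with the block and 0 in the others; and for cell type 1, against 39, 66, 2 and 36.

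Leaving out 1 library, the member median ran from -0.90 to -0.16 for KO in SSC, from -1.07 to -0.11 for KO in BCSP, from -0.55 to 0.64 for their difference, from -0.72 to -0.36 for genotype over both, from 0.51 to 0.91 for cell type and from 0.56 to 0.92 for rounds. The estimates that changed sign were mostly those of genes under 1 CPM, but H4c4, which averaged 3.61 CPM, was among them. Without both BCSP libraries of round 2, H4c4 stood at -0.61 and H2bc13 at 0 for KO in BCSP, H3c10 at -1.14 and H2bc3 at -0.11 for genotype over both, and H2ac15 at 1.38, H2ac10 at 0.16 and H2ac12 at 0.32 for cell type. Over the single left-out libraries, KO in SSC ran from -0.14 to 2.24 for H2ac20 and from -6.33 to 1.202 for H4c6, and KO in BCSP from -0.38 to 1.82 for H4c4 and from -2.21 to 6.84 for H2bc13. Genotype over both ran from -1.06 to 1.31 for H3c10 and from -0.081 to 0.52 for H2bc3, cell type from -1.35 to 0.54 for H2ac15 and from -1.07 to 0.49 for H2ac12, rounds from -2.22 to 0.22 for H2ac20, and the difference of KO effects from -0.11 to 2.25 for H3c3. A lone library left in a group is assumed to vary like the others. Round numbers were not taken to pair the libraries, since the labels do not say what a round shares and deviations of the same round correlated at 0.0234 to 0.240 between groups, above 0.1 in 4 of 6 pairs of groups. With the round as a replicate block no member was called, and H4c6 for KO in SSC turned to -0.56. RLE factors left all counts of members as they were, and class sums averaged over the groups were higher in round 2 on all 3 totals.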
